A study of Mus musculus with 8 samples.

Results

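A set of 10 genes of the first visual synapse was followed in the adult mouse retina: Grm6, Trpm1, Nyx, Gpr179, Rgs7, Rgs11, Gnb5, Lrit3, Elfn1 and Cacna1f. They were chosen by name, as genes behind the b-wave of the electroretinogram, and not by a cut on measured values. Earlier results of these data were known when they were chosen. All 10 were present among the 18058 genes of the expression table, and all 10 passed the filter on low values (a mean of at least 10 normalized counts over the 8 libraries), which 17636 genes passed. RNA sequencing had been done on whole retina of adult WT mice of the inbred strain 129S2/SvPasCrl (4 libraries, WT A to D) and of adult quadruple KO mice (4 libraries, KO A to D). The quadruple KO was bred from single KO lines and lacks 4 components of the neural extracellular matrix in every cell, the proteoglycans of the Bcan and Ncan genes and the tenascins of the Tnc and Tnr genes. The labels name no treatment. Retinae were pooled before RNA extraction, the number per pool is not given in the sources used here, and the libraries' sexes are not labelled.

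Rods and cones release glutamate in the dark and release less of it in the light. ON bipolar cells invert this signal. Glutamate acts on the metabotropic receptor mGluR6 (Grm6) at the tips of their dendrites, the receptor's G protein keeps the cation channel TRPM1 (Trpm1) closed, and the channel opens when glutamate falls. The complex of RGS7 or RGS11 with Gβ5 (Gnb5) speeds the shut-off of the G protein. Nyctalopin (Nyx), GPR179 and LRIT3 hold receptor, channel and RGS proteins together, while ELFN1 in the rod terminal binds mGluR6 across the cleft and the calcium channel Cav1.4 (Cacna1f) drives the release of glutamate. Loss of several of these genes abolishes or reduces the b-wave and causes congenital stationary night blindness in humans.

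The 10 genes were measured at levels close to each other in the 2 genotypes, and none of them passed the test. The counts had been scaled by the authors for library size (DESeq2 normalization) and are called normalized counts here. Differences are given as log2 of quadruple KO over WT, computed on log2(normalized count + 1) and tested with limma across all 17636 genes at an adjusted p (Benjamini-Hochberg) below 0.05. By that rule 0 of the 10 genes were called, where 77 of all genes tested were called (0.437%), 46 of them higher (0.261%) and 31 lower (0.176%) in the quadruple KO. Without adjustment limma gave a p below 0.05 for 2 of the 10 genes, against 16.6% of all genes. These were Rgs7, higher in the quadruple KO like 9.29% of all genes, and Rgs11, lower like 7.28%. In 7 of the 10 genes the quadruple KO mean lay within 10% of the WT mean, against 38.8% of all genes and 45.6% of the 6273 genes with a mean at or above that of the least abundant of the 10. The exceptions were Rgs7, Rgs11 and Cacna1f. For all 10 genes the 95% interval of the difference lay within 1.5-fold in either direction, which held for 53.2% of all genes and for 76.2% of those 6273 genes. The ranges of the 2 genotypes overlapped in all 10 genes, while they did not overlap in 9.74% of all genes, with the quadruple KO above in 6.16% and below in 3.58%.

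The state of the libraries bears on these values. The number of reads counted to genes, estimated from the steps between low values, was 23750000 to 40670000 in the WT libraries. In the quadruple KO libraries it was 38940000 to 52560000. These estimates are rough, since 32.1% to 61.6% of low values fell on whole steps. WT B and WT C stood apart from the other 6 libraries along the first principal component, which held 50.9% of the variance, and a signal recognition particle RNA took 16.5% and 12.99% of their normalized counts, against 4.19% to 6.97% in the others. In 5 of the 10 genes this pair exceeded WT A and WT D, and in 1 it was below them. One or the other held for 70.8% of all genes. The differences were therefore also computed without WT B and WT C, in which case 0 of the 10 genes were called, against 99 of 17585 genes tested (0.563%). Of the targeted genes, Ncan measured 688 ± 94.0 normalized counts (SD, n = 4) in WT and 0 to 0.853 in the quadruple KO libraries, Bcan fell from 258 ± 54.7 to 15.0 ± 4.79 and Tnr from 5856 ± 340.2 to 2509 ± 95.1 (limma, adjusted p below the threshold for each). Tnc measured 1265 ± 330.3 in WT and 1175 ± 104 in the quadruple KO. Its deletion takes out a short stretch of the gene by the study's account, so a count over the whole gene does not check that allele.

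**Figure D1:**
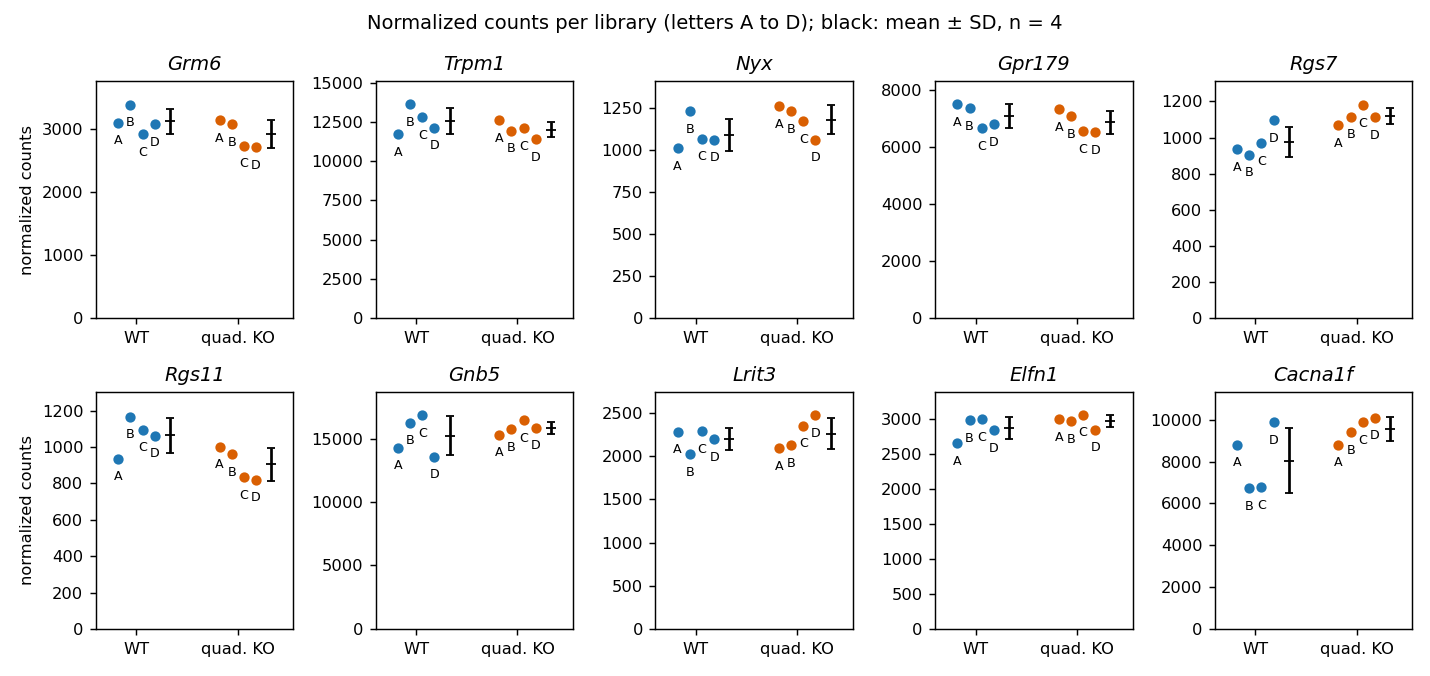
Normalized counts (vertical axes, each from 0) of the 10 genes in the 4 WT libraries (blue) and the 4 quadruple KO libraries (orange), with the library letter under each point and the mean ± SD of each group in black. The points of the 2 genotypes overlap in every panel, and the WT points of Cacna1f fall into a high pair (A and D) and a low pair (B and C).

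Grm6 encodes mGluR6, the receptor that makes a bipolar cell an ON bipolar cell (ENSMUSG00000000617.15, GRCm39 chr11:50741512-50757035, plus strand). It measured 3099, 3384, 2915 and 3082 normalized counts in WT A to D. The quadruple KO libraries A to D held 3138, 3081, 2738 and 2714. KO A and KO B lay inside the WT range, and KO C and KO D lay below all WT libraries. The means were 3120.1 ± 195 and 2918 ± 223 (SD, n = 4 each), a log2 difference of -0.10 with a 95% interval from -0.28 to 0.08 (limma, adjusted p = 0.464). On the linear scale the interval runs from 0.826 to 1.06 of the WT level. The exact two-sided permutation p was 0.2286, where 0.0286 is the smallest that 4 against 4 libraries can give. In whole retina, a different number of expressing cells and a different amount of transcript per cell cannot be told apart. This holds for Grm6 and for each of the other genes.

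Trpm1 is the channel that mGluR6 closes (ENSMUSG00000030523.19, chr7:63803583-63922019, plus strand). Its values were 11733, 13624, 12811 and 12136 in WT A to D. In KO A to D they were 12615, 11943, 12117 and 11407. WT B and WT C were the highest of the 8 libraries, and all but KO D lay inside the WT range. The log2 difference was -0.06 (95% interval -0.22 to 0.09, limma adjusted p = 0.587), and it was 0.01 without WT B and WT C, so no direction can be given. The Trpm1 gene hosts the microRNA gene Mir211 on the same strand, which was not counted here.

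Nyx, Gpr179 and Lrit3 encode proteins that carry no current and no enzyme activity of their own but are needed for TRPM1 or the RGS complex to reach the dendritic tips. Nyctalopin (Nyx, ENSMUSG00000051228.6, chrX:13327355-13359058, plus strand) measured 1011, 1230.3, 1068 and 1061.5 in WT A to D. The quadruple KO values were 1261, 1231, 1173 and 1063 in A to D. KO A lay above and KO B level with the highest WT library, KO D lay between WT D and WT C, and the log2 difference was 0.11 (95% interval -0.09 to 0.31, limma adjusted p = 0.451). Against WT A and WT D alone it was 0.19 with an interval of 0.02 to 0.36, an unadjusted limma p of 0.0359 and an adjusted p of 0.391.

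GPR179 is an orphan receptor that anchors RGS7 and RGS11 next to TRPM1 (ENSMUSG00000070337.5, chr11:97222935-97242903, minus strand). Its transcript measured 7496, 7361, 6652 and 6782 in WT A to D and 7326, 7081, 6555 and 6503 in KO A to D. Both genotypes thus held a higher and a lower pair of libraries, and the pairs sat at nearly the same levels. The means were 7073 ± 418 and 6866 ± 402 (SD, n = 4 each), a log2 difference of -0.04 with an interval of -0.20 to 0.12 (limma, adjusted p = 0.732). Gpr179 shares 9931 bp of its locus with Mrpl45 on the opposite strand, a gene with a mean of 688 normalized counts. The library kit keeps the strand, but the strand setting of the counting is not given in the sources used here.

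LRIT3 is a leucine-rich repeat protein that acts across the same synapse and is required for nyctalopin and TRPM1 to be in place (ENSMUSG00000093865.8, chr3:129581530-129597679, minus strand). WT A to D held 2284, 2021, 2287 and 2195 normalized counts, and KO A to D held 2093, 2127, 2352 and 2473. KO C and KO D were the highest of all libraries and WT B the lowest. The log2 difference was 0.04 with an interval of -0.14 to 0.22 (limma, adjusted p = 0.778). No gene of the 10 had a higher adjusted p.

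The deactivation complex held the 2 genes with the smallest unadjusted p, and they differed in opposite directions. RGS7 and RGS11 both speed GTP hydrolysis by the G protein of mGluR6 and can stand in for each other in ON bipolar cells. Rgs7 (ENSMUSG00000026527.14, chr1:174885703-175320066, minus strand) measured 935, 906, 971 and 1097 in WT A to D and 1069.6, 1116, 1179.6 and 1115 in KO A to D. All quadruple KO libraries lay above WT A, B and C, and WT D lay inside the quadruple KO range. The means of 977 ± 84.3 and 1119.9 ± 45.2 (SD, n = 4 each) gave a log2 difference of 0.20 ± 0.08 (SE, 95% interval 0.02 to 0.38). The unadjusted limma p was 0.0361 and the adjusted p 0.301, and the exact permutation p was 0.0571.

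Rgs11 (ENSMUSG00000024186.16, chr17:26421904-26430829, plus strand) measured 937, 1168, 1096 and 1062 in WT A to D. It measured 1002, 961, 836 and 819.9 in KO A to D. KO C and KO D lay below every WT library, whereas KO A and KO B lay between WT A and WT D. The means were 1066 ± 96.7 and 905 ± 90.3 (SD, n = 4 each), and the log2 difference was -0.24 ± 0.10 (SE, 95% interval -0.46 to -0.01, limma adjusted p = 0.301, exact permutation p = 0.0857). Without WT B and WT C the differences were 0.14 for Rgs7 and -0.15 for Rgs11, and both intervals then included 0. Rgs11 overlaps Arhgdig on the opposite strand over 4857 bp, and Arhgdig had a mean of 170 normalized counts.

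Gβ5, the partner without which RGS7 and RGS11 proteins are degraded, is also the partner of RGS9 in rod and cone outer segments, so its transcript in whole retina comes from photoreceptors and bipolar cells together. Gnb5 (ENSMUSG00000032192.10, chr9:75213524-75253203, plus strand) measured 14266.5, 16252, 16824 and 13569 in WT A to D. In KO A to D it measured 15305, 15718, 16423 and 15863. KO A, KO B and KO D lay between the low WT pair (A and D) and the high WT pair (B and C), and KO C lay between WT B and WT C. Their SD was 462, against 1557 in WT, and the log2 difference was 0.06 (95% interval -0.12 to 0.24, limma adjusted p = 0.663). Against WT A and WT D alone it was 0.19 with an interval of 0.08 to 0.29, an unadjusted limma p of 0.0033 and an adjusted p of 0.207.

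The ratio of the RGS genes within a library does not depend on library size. Rgs11 over Rgs7 was 1.002, 1.29, 1.13 and 0.968 in WT A to D and 0.936, 0.862, 0.709 and 0.735 in KO A to D. Every WT library thus lay above every quadruple KO library, with means of 1.097 ± 0.146 and 0.811 ± 0.107 (SD, n = 4 each), although WT D and KO A were close neighbours. This ratio was looked at because both genes had moved apart in the values above, so no test is given. Among all 45 ratios between the 10 genes, 6 had ranges that did not overlap (13.3%), against 9.06% of 174580 ratios between one of the 10 genes and any other tested gene, a share near that background. Nyx or Rgs11 was part of most of them. Nyx over Rgs11 was 1.03 ± 0.048 in WT and 1.31 ± 0.064 in the quadruple KO, Grm6 over Nyx was 2.86 ± 0.156 and 2.47 ± 0.0948, and Trpm1 over Nyx was 11.5 ± 0.382 and 10.2 ± 0.443.

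**Figure D2:**
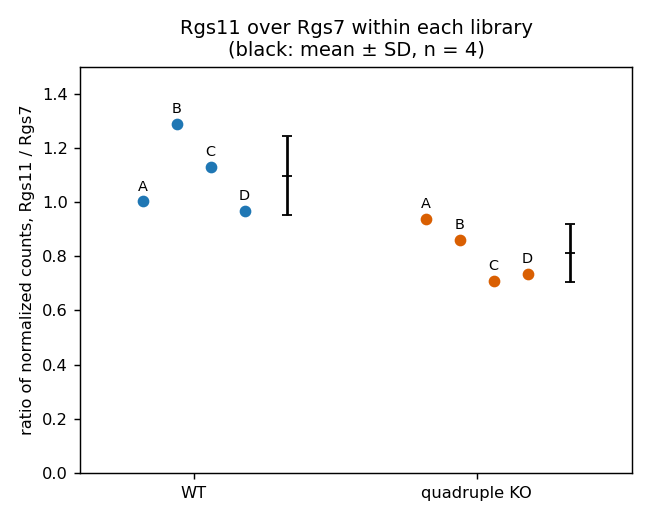
Ratio of the normalized counts of Rgs11 to those of Rgs7 (vertical axis, from 0) in each WT (blue) and quadruple KO (orange) library, with library letters and the mean ± SD of 4 libraries in black. The lowest WT ratio is 0.968 (WT D) and the highest quadruple KO ratio is 0.936 (KO A).

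On the photoreceptor side, ELFN1 is a leucine-rich repeat protein of rod terminals that recruits mGluR6 and allows rods to contact ON bipolar cells. Elfn1 (ENSMUSG00000048988.9, chr5:139893517-139960483, plus strand) measured 2652, 2987, 2999 and 2843 in WT A to D and 3001, 2966, 3059.7 and 2847 in KO A to D. WT A was the lowest library and the other 7 lay close together. The means of 2869.9 ± 162 and 2968 ± 89.5 (SD, n = 4 each) gave a log2 difference of 0.05 with an interval of -0.10 to 0.20 (limma, adjusted p = 0.659).

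Cacna1f, the pore-forming subunit of Cav1.4 at the ribbon of rods and cones, had the largest difference in size of the 10 genes and the widest interval (ENSMUSG00000031142.18, chrX:7473322-7501435, plus strand). It measured 8816, 6724, 6789 and 9884 in WT A to D. The quadruple KO values were 8819, 9419.6, 9902 and 10098 in A to D. WT B and WT C were far below the other 6 libraries, while WT A and WT D lay at or within the range of the quadruple KO. The log2 difference was 0.27 ± 0.13 (SE, 95% interval -0.02 to 0.55, limma adjusted p = 0.308, exact permutation p = 0.1143). The coefficient of variation was 19.4% in WT and 5.97% in the quadruple KO. Without WT B and WT C the difference was 0.03, with an interval of -0.12 to 0.18 (limma, adjusted p = 0.876). The part that the state of WT B and WT C played in the value over all libraries was not tested further.

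**Figure D3:**
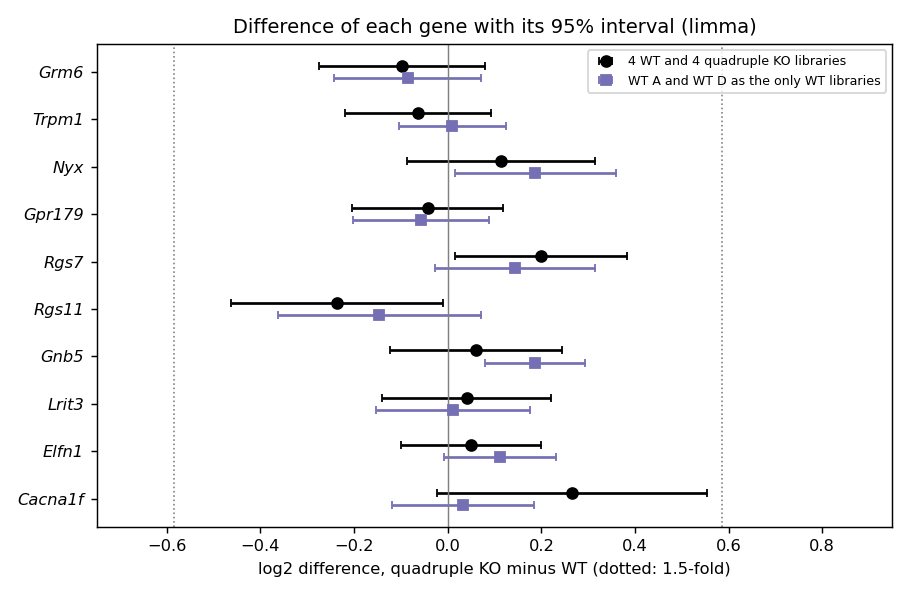
Log2 difference (quadruple KO minus WT, horizontal axis) of each gene with its 95% interval from limma, over all 8 libraries (black circles) and without WT B and WT C (violet squares); the dotted lines mark 1.5-fold. All intervals stay inside the dotted lines, and Cacna1f moves from 0.27 to 0.03 when WT B and WT C are left out.

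Nyx and Cacna1f are the 2 genes of the 10 on the X chromosome. Transcripts of the Y-linked genes were present in all 8 libraries, Ddx3y between 1787 and 2230 normalized counts, Uty between 1601 and 2777, Kdm5d between 749 and 1298 and Eif2s3y between 617 and 1257. Each pool thus held Y-linked RNA. All 4 Y-linked genes were lowest in WT B and WT C. Eif2s3y, for example, measured 631 and 617 there, against 1157 and 1257 in WT A and WT D. Xist was not among the genes of the expression table. None of the Y-linked genes was called (limma, adjusted p from 0.301 to 0.539).

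Levels can be compared between genes only per length, and for this the normalized counts were divided by the length of each gene's merged exons. Gnb5 stood first with 4265 ± 305 normalized counts per kb (SD over 8 libraries), followed by Cacna1f with 969 ± 149, and the ranges of these 2 did not overlap. Lrit3 (814 ± 54.3), Gpr179 (730.4 ± 41.4) and Trpm1 (696 ± 39.5) came next, each overlapping its neighbour, Cacna1f included. Grm6 (557 ± 40.9) and Elfn1 (551 ± 24.9) formed a lower pair, below the range of Trpm1. Rgs11 (192 ± 23.8), Rgs7 (143 ± 13.5) and Nyx (126 ± 10.7) overlapped each other in turn and lay below all others. By this measure the receptor exceeded each of the RGS genes and Nyx in every library, whereas Gnb5, shared with photoreceptors, exceeded all of them. The merged exons are those of all annotated transcripts, whether used in the retina or not, so the order depends partly on the annotation. The summed normalized counts of the 10 genes ran from 53227 to 55658 in WT and from 54904 to 56336 in the quadruple KO, ranges that overlap.

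**Figure D4:**
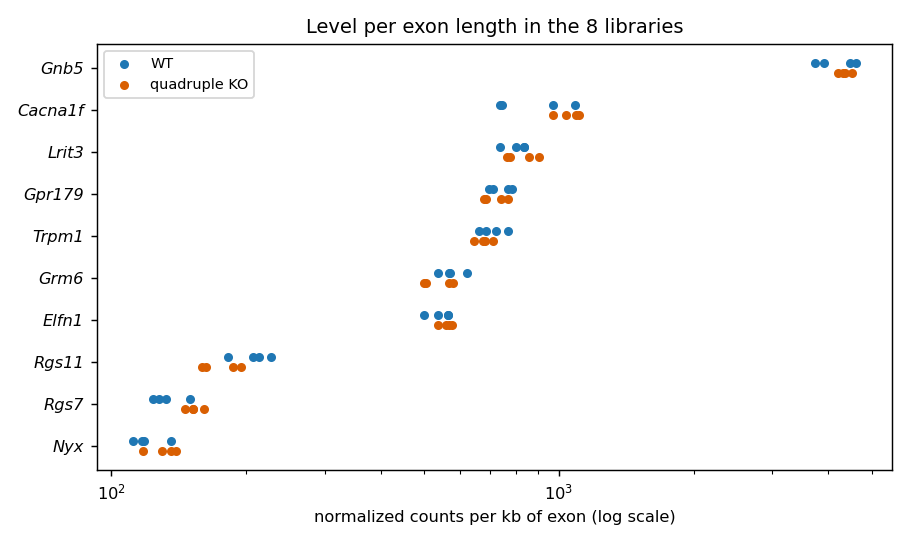
Level of each gene as normalized counts per kb of merged exons (horizontal log axis) in the WT (blue) and quadruple KO (orange) libraries, ordered by the mean over all 8. Gnb5 stands alone at 4265 on average, and Rgs11, Rgs7 and Nyx lie lowest at 192, 143 and 126.

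The wider pathway gave the same count of 0 called genes. The 12 partners of the cascade were G protein subunits, their regulators and binding partners, together with Lrit1, Lrit2, Prkca and Camk2b. Among them 0 were called, 9 were higher and 3 lower, with a median log2 difference of 0.14, against -0.00 over all genes tested. Unadjusted, limma gave a p below 0.05 for 3 of the higher and 1 of the lower partners, against 9.29% and 7.28% of all genes. Without WT B and WT C that median was 0.04. Ric8b, a chaperone and exchange factor for G protein alpha subunits, measured 3999 ± 673 in WT and 5493 ± 340.1 in the quadruple KO (log2 0.47 ± 0.12 SE, limma adjusted p = 0.289). Its 4 quadruple KO libraries lay above all WT libraries, which held for 2 of the 12 partners and for 6.16% of all genes. Against WT A and WT D the difference of Ric8b was 0.27. Pcp2, a regulator of G protein alpha subunits in ON bipolar cells, differed by 0.42 (limma adjusted p = 0.301) and by 0.10 against WT A and WT D. Gnai2 differed by -0.50 (limma adjusted p = 0.301) and by -0.16 against WT A and WT D. Rgs9bp, the anchor of RGS9 in outer segments and the most abundant of these genes, measured 32317 ± 2049.6 and 32902 ± 2079 (SD, n = 4 each, log2 0.03).

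The 8 relatives of the 10 genes within the R7 RGS, metabotropic glutamate receptor, ELFN, TRPM and GPR179-related orphan receptor families held 0 called genes, 7 of them higher and 1 lower, with a median log2 difference of 0.08 that became -0.03 against WT A and WT D. None of the 8 had an unadjusted limma p below 0.05. Grm8, a receptor of the same group as Grm6 that is used by other retinal neurons, measured 947 ± 221 in WT and 1138 ± 36.8 in the quadruple KO (log2 0.29, limma adjusted p = 0.314), and the difference was 0.02 against WT A and WT D. Trpm3 differed by 0.23 and Elfn2 by -0.18 (limma adjusted p = 0.389 and 0.367). Rgs9, the most abundant of the relatives, differed by 0.02 (limma adjusted p = 0.857).

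Of 22 genes of the photoreceptor terminal, 0 were called, 14 were higher and 8 lower, with a median of 0.05, and 2 had an unadjusted limma p below 0.05, both of them higher (9.29% of all genes). Rims1 and Pclo, organizers of the active zone, differed by 0.32 and 0.29, and Cplx3, a complexin of ribbon synapses, by -0.27 (limma adjusted p = 0.303, 0.428 and 0.328). Against WT A and WT D these 3 differences were 0.06, -0.14 and 0.02.

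**Figure D5:**
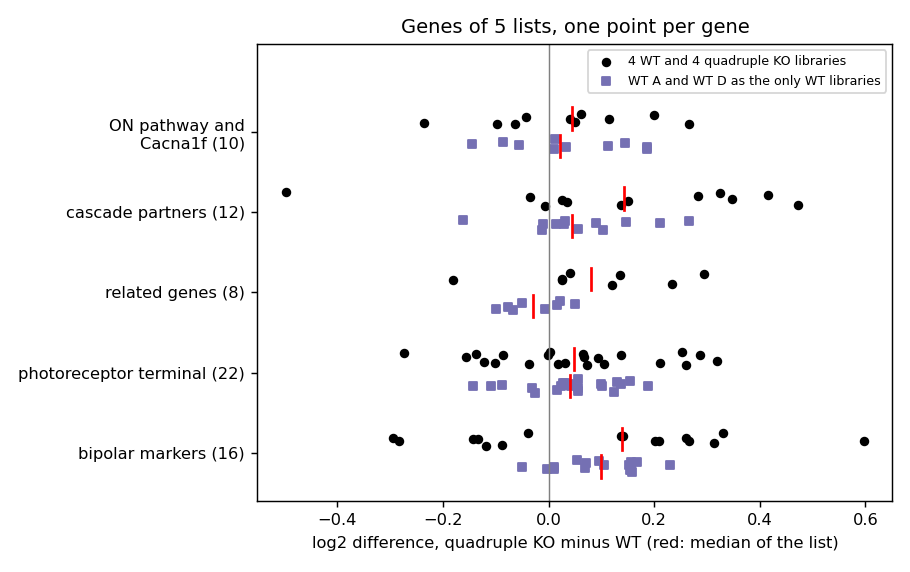
Log2 difference (quadruple KO minus WT, horizontal axis) of every gene in 5 lists, one point per gene, over all 8 libraries (black circles) and without WT B and WT C (violet squares), with the median of each list in red and the number of genes in brackets. The points of each list lie closer together when WT B and WT C are left out.

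Markers of bipolar cells were examined beside these genes, because Grm6 and several of its partners are transcripts of ON bipolar cells. The markers are those of bipolar cells in general and not of ON bipolar cells only, and Elfn1 and Cacna1f belong to the photoreceptor side. Of 16 markers 0 were called (limma), 9 were higher and 7 lower, with a median log2 difference of 0.14, and 0.10 against WT A and WT D. Unadjusted, 7 of the 16 had a limma p below 0.05, all of them higher, where 9.29% of all genes did so. In 5 of the 16 the quadruple KO values lay above all WT values (background 6.16% of all genes). Of these, Otx2, Grik1, Lhx4 and Tacr3 were lowest in WT B and WT C, and Gabrr2 was not. Tacr3 and Car8 differed by 0.33 and 0.31 (limma adjusted p = 0.301 for each), and by 0.16 and 0.07 against WT A and WT D. Of the 7 lower markers, Vsx1 and Isl1 had the largest differences, -0.29 and -0.28 (limma adjusted p = 0.337 and 0.323). Against WT A and WT D each of them differed by 0.01. The summed level of the markers was 35516 to 38150.1 in WT and 38139.6 to 41107 in the quadruple KO. The part of bipolar cell content in the values of the 10 genes was not tested.

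Otx2, a homeodomain transcription factor of photoreceptors and bipolar cells, had the largest difference of the bipolar list. It measured 4368, 2672, 2815 and 4761 in WT A to D and 5124, 5397, 5629 and 5256 in KO A to D. WT B and WT C were low, but WT A and WT D also lay below every quadruple KO library. The log2 difference was 0.60 ± 0.18 (SE, limma adjusted p = 0.301, exact permutation p = 0.0286), and it was 0.23 against WT A and WT D (limma adjusted p = 0.180). OTX2 and its relative CRX bind the core TAATCC, which a gene's own strand may carry as its reverse complement GGATTA. The 250 bases before the start of transcription were read from RefSeq (GRCm38.p6) for 9 of the 10 genes, which gave 10 windows because Trpm1 has more than one start. The core was found on either strand in 2 of the 10 windows, against 6.25% of 32851 promoters, and the core TAATTA of other homeodomain proteins in 0 of the 10 windows, against 4.84%. The last 60 bases before the start are shown for these 2, with the match in capitals, since they are the windows in which the letters were found. The window at the other Trpm1 start held no match. They lie at chr7:64153775-64153834 and chr9:75306228-75306287, both on the plus strand, and the matches begin at positions -34 and -6 from the start.
Trpm1: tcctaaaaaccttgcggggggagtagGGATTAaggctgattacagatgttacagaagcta
Gnb5: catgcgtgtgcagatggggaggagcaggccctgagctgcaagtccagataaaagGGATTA
The log2 differences of these 2 genes were -0.06 and 0.06. A match of letters is no measurement of binding.

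Markers of other retinal cells give the background for the photoreceptor genes. The quadruple KO values lay above all WT values in 3 of 10 rod markers, 1 of 9 cone markers and 1 of 8 Müller glia markers. Among horizontal and amacrine cell markers this held for 0, and among all genes for 6.16%. Of the 10 rod markers 0 were called (limma), and their median log2 difference was 0.14, and 0.09 against WT A and WT D. Of 9 cone markers 1 was called, 3 were higher and 6 lower, with a median of -0.01, and 0.03 against WT A and WT D. Horizontal cell (6 genes), amacrine cell (9) and Müller glia (8) markers held 0 called genes, with medians of 0.13, 0.14 and 0.16, and of 0.05, 0.03 and 0.03 against WT A and WT D. An unadjusted limma p below 0.05 was found in the higher direction for 3 rod, 1 cone, 1 horizontal cell, 3 amacrine cell and 1 Müller glia markers (9.29% of all genes), and in the lower direction for 1 Müller glia marker (7.28%). Of 8 ganglion cell markers 0 were called, 2 were higher and 6 lower, with a median of -0.19, and -0.21 against WT A and WT D, and 4 had an unadjusted limma p below 0.05, all of them lower (7.28% of all genes). The summed level of pigment epithelium markers was 2022 to 6339 in WT and 2293 to 3571 in the quadruple KO, and that of lens markers 65.3 to 2797 and 20.1 to 1817, so transcripts of both tissues next to the retina were present in libraries of both genotypes.

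The genes whose profile over the 8 libraries was most like that of Grm6, by the root mean square difference of centred log2 values, were Lhx1 (0.026), 1700086O06Rik (0.039) and Nfib (0.047), where the spread of Grm6 itself was 0.0995. For Cacna1f they were Zfp458 (0.038), Cxxc4 (0.039) and Gnpda2 (0.040), where its spread was 0.222. Gnpda2, for example, measured 549, 419, 422 and 591.5 in WT A to D and 577, 564, 606 and 610.1 in KO A to D, with the same low pair of WT B and WT C. These likenesses rest on 8 libraries and share whatever the libraries share.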

How the data were processed

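Total RNA of whole retina had been sequenced from directional libraries. The submitters' processing notes name Trim Galore 0.6.7, STAR 2.7.9a, Salmon 1.5.2 and GRCm39. The deposited values are gene counts that the authors normalized with DESeq2 1.32.0 in R 4.1.1. They were not whole reads (32.1% to 61.6% of low values fell on whole steps, within 0.05), so no count model was run. The authors' fold change and p-value columns were not used.

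Groups came from sample titles. log2(normalized count + 1) of 17636 genes with a mean of at least 10 was tested with limma 3.58.1 (R 4.3.3, empirical Bayes with trend, Benjamini-Hochberg), checked on simulated data. Single genes had an exact two-sided permutation test. Nothing says whether pools were separate animals, so p-values measure the spread between these samples. The 10 genes and all gene lists were chosen with earlier results of these data known. From the cascade, relatives, terminal and bipolar lists, called genes were named, otherwise the 3 largest differences and the highest mean. Some genes that this rule picks are not reported here. Grik1, Gabrr2, Lhx4, Vsx1, Isl1, Gnpda2 and ratio pairs were chosen after their values were seen. Exon lengths came from GENCODE vM39. 18 alternatives were run.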

Additional observations from a re-analysis of the deposited data

How the results depend on the processing

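None of the 10 genes was called by limma under any of the 18 alternatives (scaling, filter, pseudocount, trend, array weights, replicate block, WT A and WT D only, and each library left out). The lowest adjusted p were 0.0789 for Cacna1f and 0.0792 for Rgs7, both from the setting without WT D. That setting keeps WT B and WT C and also gave the largest differences of these 2 genes. The difference of Cacna1f ran from 0.03 to 0.37, that of Rgs11 from -0.30 to -0.11 and that of Rgs7 from 0.14 to 0.26. Trpm1 and Lrit3 had no stable direction. Trpm1 was 0.0102 with array weights and 0.00962 with WT A and WT D only. Lrit3 was -0.00211 with array weights and -0.00385 (without KO D) to 0.0764 with one library left out. The median of the relatives was -0.0287 with WT A and WT D only. Over all genes, 143 were called with array weights and 54 to 89 with one library left out. With the letter as a replicate block 51 were called. Correlations between the libraries of one letter ran from -0.109 to 0.098, and those between different letters from -0.132 to 0.115. These values show no pairing by letter, but shared handling of the samples of a letter was not tested. The cause of these changes was not tested. With 4 pools a genotype the intervals are wide, and the smallest difference that could have been detected was not computed. The estimated number of reads counted to genes was smallest in WT B, then WT C.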

Other observations

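Pde6c, the catalytic phosphodiesterase subunit of cones, was the 1 called gene among the markers of cells around this synapse. It was named because it was called. Its WT mean was 726 ± 99.8 normalized counts and its quadruple KO mean 1905 ± 395 (SD over 4 libraries each), a log2 difference of 1.37 (limma, adjusted p = 0.00498) that was 1.25 against WT A and WT D (limma, adjusted p = 0.0137). The other 8 cone markers were not called, and of all 9 only 3 were higher and 6 lower in the quadruple KO.

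Among the 8 ganglion cell markers, 3 (Nefl, Sncg and Rbpms) had quadruple KO values below all WT values, which held for 3.58% of all genes. They were named after their values were seen, from a list with 6 lower and 2 higher genes. Their log2 differences were -0.23, -0.27 and -0.43, and none was called (limma, adjusted p = 0.301, 0.301 and 0.297).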
